A study of Homo sapiens with 27 samples.

Results

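Genes of the MHC class I antigen presentation pathway, namely *HLA-B*, *HLA-C*, *HLA-E*, *B2M*, *TAP1*, *TAP2*, *TAPBP*, *PSMB8* and *PSMB9*, were followed through a FAK inhibitor time course in uveal melanoma cells. The genes were found by their symbols in the annotation of the count table, which gave 9 of the 61533 genes listed. RNA sequencing was performed on 92.1, a human uveal melanoma cell line with a *GNAQ* mutation, kept for up to 21 days in VS-4718 at 100 nM, which blocks the focal adhesion kinase FAK and is written FAKi below, or in the solvent DMSO. Each of 9 groups holds 3 replicates (27 libraries), with a DMSO group at day 0 and a DMSO and a FAKi group for days 3, 7, 14 and 21. All groups come from the same line and carry no added gene, and medium with the agent was renewed every 72 h. The methods mention triplicate plating as well as biological repeats, and the labels do not say which of these a replicate number counts, so the p-values below may measure technical spread only. The question put to the data was whether RNA of the pathway differed between FAKi and DMSO, and whether any difference changed with time.

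MHC class I molecules show peptides from inside the cell to CD8 T cells and to natural killer cells. Proteasomes cut proteins into peptides, the TAP transporter carries the peptides into the endoplasmic reticulum, tapasin holds the transporter next to an empty class I molecule, and a filled heavy chain leaves for the cell surface together with beta-2-microglobulin. Interferon raises most of these genes together through factors such as IRF1 and NLRC5, and tumours, uveal melanoma included, vary widely in how much class I they carry.

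Promoter sequences are shown because interferon and NF-kB signals reach class I genes through short motifs, which were found in some members' promoters and not in others. The RefSeq promoter table for GRCh38.p14 holds 8 of the 9 members, from 250 bases before to 50 bases after the start. The core of the interferon-stimulated response element was searched as GAAANNGAA and an NF-kB site as GGGATTCCC, on both strands and with overlapping matches allowed. GAAANNGAA was found in 4 of 8 member promoters (*B2M*, *TAP1*, *TAP2* and *TAPBP*) and in 8.11% of 35116 promoters of the same length. GGGATTCCC was found in 1 of 8, *HLA-B*, and in 0.384% of all promoters. *TAP1* and *PSMB9* lie head to head with 488 bases between their starts, and the upstream stretches of both are given, outside annotated exons, with 30 bases around the matches of the other members. Capitals mark the matches, and each sequence is written 5′ to 3′ on the strand of its gene. The matches of *TAP1* also lie upstream of *PSMB9*, between the starts of both genes. They fall beyond the 250 bases searched before the *PSMB9* start, so no match for *PSMB9* holds for its window only.
TAP1, chr6:32853817-32853954, minus strand: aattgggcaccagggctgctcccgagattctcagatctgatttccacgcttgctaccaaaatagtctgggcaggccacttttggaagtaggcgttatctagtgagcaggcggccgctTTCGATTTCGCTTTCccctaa
PSMB9, chr6:32853942-32854147, plus strand, no match: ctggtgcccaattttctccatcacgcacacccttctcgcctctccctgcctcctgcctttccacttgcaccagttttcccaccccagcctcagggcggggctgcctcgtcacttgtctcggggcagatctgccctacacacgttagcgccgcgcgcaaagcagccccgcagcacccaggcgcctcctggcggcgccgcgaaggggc
B2M, chr15:44711365-44711394, plus strand: gactctaaGAAAAGGAAACTGAAaacggga
TAP2, chr6:32838779-32838808, minus strand: gctggggaagcGAAAGCGAAagctgcccga
TAPBP, chr6:33314079-33314108, minus strand: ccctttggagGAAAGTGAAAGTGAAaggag
HLA-B, chr6:31357337-31357366, minus strand: gcgcagcgttgGGGATTCCCcactcccctg

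Total counts per library ran from 12161994 to 43651551, and levels below are CPM, in which each library is brought to one fixed total, with TMM factors set over the 27 libraries. Melanocyte marker genes summed to 9365 to 15290 CPM in all libraries, immune cell markers to 0 to 0.625 CPM and stromal markers to 3.83 to 10.6 CPM. The drug acts on the FAK protein, and RNA of its gene *PTK2* differed between FAKi and DMSO by a log2 fold change of -0.06 to 0.13 on the 4 days, without passing the test. In bulk RNA, fewer cells that use a gene and less RNA per cell cannot be told apart. Across 15523 genes 8 of the 27 libraries were closest to a library of another group, and 3 of these lay farther from their own closest replicate than any other library did. The library labelled DMSO day 3 replicate 1 was nearest to DMSO day 0 replicate 3, FAKi day 7 replicate 1 to FAKi day 14 replicate 1, and DMSO day 21 replicate 3 to DMSO day 3 replicate 3, at distances of 0.24, 0.175 and 0.285 against 0.516, 0.638 and 0.647 to their own closest replicates. The other 5 were DMSO day 3 replicates 2 and 3, FAKi day 7 replicate 2 and FAKi day 14 replicates 1 and 2, at 0.175 to 0.331 against 0.278 to 0.431. The mitochondrial share of the counts ran from 5.49% to 26.97%, and its values are given beside the genes that moved with it.

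*B2M* had the highest level of the 9 genes per transcript length, with a median of 280 CPM per kilobase. The heavy chains followed with 42.3 for *HLA-B*, 32.3 for *HLA-C* and 29.96 for *HLA-E*. The immunoproteasome subunits stood at 3.45 for *PSMB8* and 3.11 for *PSMB9*, tapasin (*TAPBP*) at 2.74, *TAP2* at 2.45 and *TAP1* at 0.95 CPM per kilobase. Counts behind these values were high for *B2M* (3139 to 14909 per library) and the heavy chains (510 to 6097), and low for *TAP1* (22 to 108) and *PSMB9* (25 to 207), so these are measured with the largest counting error. Across the 27 libraries *TAP2* varied least, by 1.64-fold from lowest to highest, and *PSMB9* most, by 6.33-fold.

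**Figure D1:**
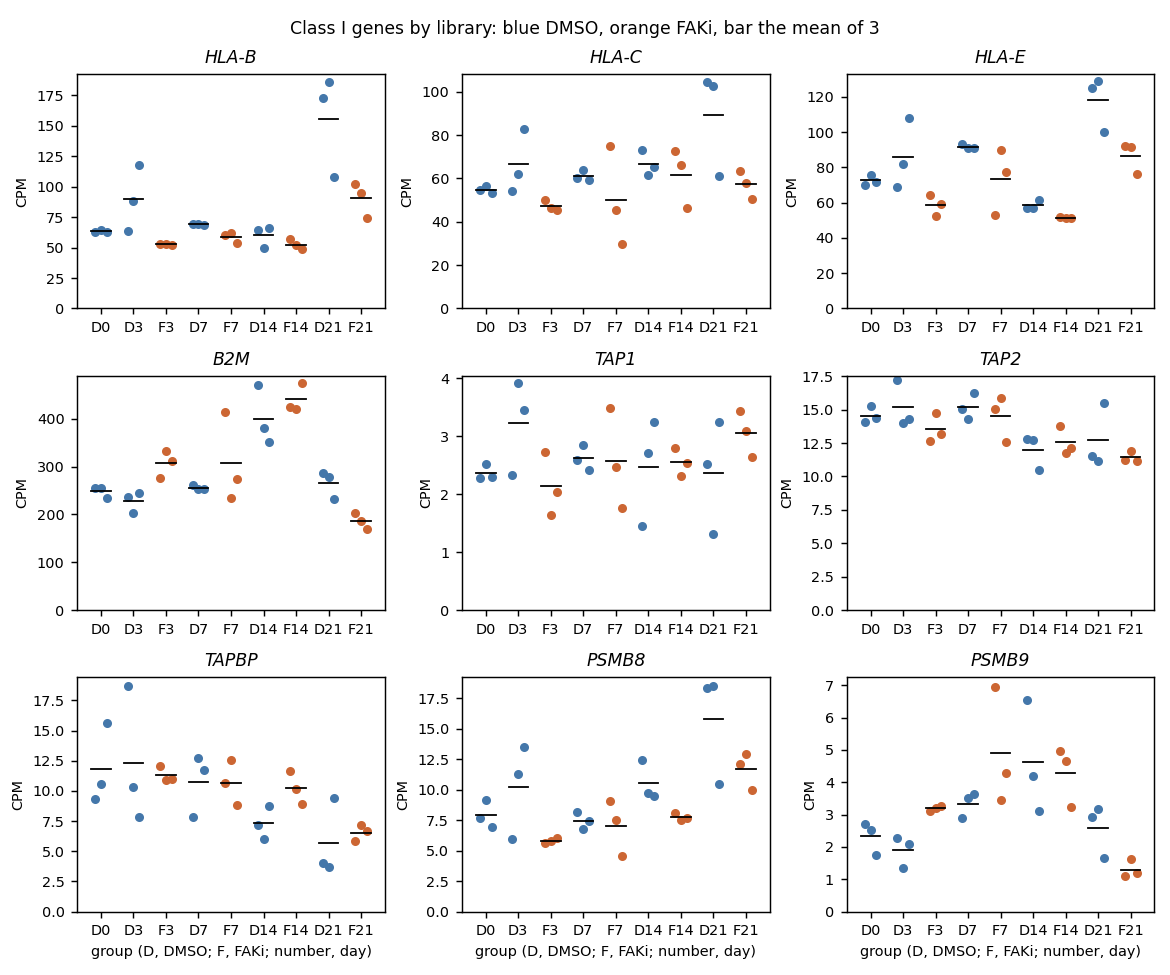
Level of each class I gene in CPM (linear axes from 0) in the 27 libraries by group, with D for DMSO, F for FAKi and the number for the day. Points are libraries and bars are means of 3. *HLA-B* was highest in DMSO at day 21 (108 to 186 CPM) and *B2M* in both day 14 groups (351 to 475 CPM).

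The classical heavy chain *HLA-B* (chr6:31353875-31357179, hg38, minus strand) presents peptides to CD8 T cells. At day 3 it had 63.8, 87.9 and 118 CPM in DMSO and 53.2, 52.6 and 52.1 CPM in FAKi, and at day 21 it had 173, 186 and 108 CPM in DMSO and 102, 94.7 and 74.7 CPM in FAKi. All FAKi libraries lay below all DMSO libraries on both days, and the library labelled DMSO replicate 1 at day 3 and replicate 3 at day 21 lay closest to the FAKi libraries. At day 7 the levels were 69.2, 69.8 and 68.99 CPM in DMSO and 60.2, 62.2 and 53.4 CPM in FAKi, again without overlap. At day 14 they were 64.8, 49.8 and 66.5 CPM in DMSO and 56.7, 51.8 and 48.9 CPM in FAKi, and the groups overlapped. The log2 fold changes of FAKi against DMSO were -0.75 (SE 0.213), -0.24 (SE 0.123), -0.20 (SE 0.119) and -0.76 (SE 0.211) on the successive days.

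In order of mean level, *HLA-B* was highest in DMSO at day 21 (156 ± 41.6 CPM, SD, n = 3), whose libraries did not overlap with the next group, FAKi at day 21 (90.5 ± 14.2 CPM). FAKi at day 21 overlapped with DMSO at day 3 (89.9 ± 27.2 CPM), and FAKi at day 3 (52.6 ± 0.533 CPM) and FAKi at day 14 (52.5 ± 3.94 CPM) shared the lowest place. The starting level, DMSO at day 0, was 63.4 ± 0.838 CPM.

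*HLA-C*, the other classical heavy chain, had 54.4, 62.3 and 82.9 CPM in DMSO and 50, 46.5 and 45.4 CPM in FAKi at day 3. At day 21 it had 104, 103 and 61.2 CPM in DMSO and 63.4, 57.8 and 50.6 CPM in FAKi, where DMSO replicate 3 fell inside the FAKi range. At day 7 the FAKi libraries spread from 29.9 to 75.1 CPM on both sides of the DMSO libraries (59.1 to 63.98 CPM). The log2 fold changes were -0.47 (SE 0.178), -0.28 (SE 0.277), -0.11 (SE 0.133) and -0.62 (SE 0.203) at days 3, 7, 14 and 21. Without FAKi day 7 replicate 1, the highest of that group, the day 7 value was -0.68 (adjusted p = 0.0204 in edgeR, quasi-likelihood test, Benjamini-Hochberg). Over the 6 fits that each left out 1 library of day 7, this value ran from -0.68 to -0.009.

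*HLA-E* (chr6:30489509-30494194, plus strand), a heavy chain that is read mainly by receptors of natural killer cells, had lower values in every FAKi library than in every DMSO library on all 4 days. At day 3 it had 68.7, 81.9 and 108 CPM in DMSO and 64.2, 52.5 and 59.2 CPM in FAKi, and at day 21 125, 129 and 100 CPM in DMSO and 92.0, 91.9 and 76.3 CPM in FAKi. At days 7 and 14 the gaps were small, with 90.9 CPM as the lowest DMSO and 90.0 CPM as the highest FAKi library at day 7, and 56.8 and 51.7 CPM at day 14. From day 3 to day 21 the log2 fold changes of *HLA-E* were -0.53 (SE 0.188), -0.31 (SE 0.184), -0.18 (SE 0.101) and -0.42 (SE 0.142).

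*B2M* (chr15:44711517-44718145, plus strand), which encodes the light chain of every class I molecule, did not follow the heavy chains. At day 3 it was higher in FAKi, with 277, 332 and 312 CPM against 236, 203 and 246 CPM in DMSO, and at day 21 it was lower in FAKi, with 203, 185 and 169 CPM against 287, 278 and 232 CPM. The groups did not overlap on either day. At day 7 the FAKi libraries had 415, 233 and 275 CPM and the DMSO libraries 262, 253 and 253 CPM. The high value belongs to FAKi replicate 1, the library nearest to day 14, and at day 14 both groups were high, with 426, 422 and 475 CPM in FAKi and 471, 380 and 351 CPM in DMSO. The log2 fold changes were 0.45 (SE 0.157), 0.27 (SE 0.204), 0.14 (SE 0.107) and -0.49 (SE 0.137). Without FAKi day 7 replicate 1 the day 7 value was -0.0063.

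*PSMB9* (chr6:32854192-32859851, plus strand) encodes an immunoproteasome subunit that replaces the constitutive subunit PSMB6. Like *B2M* it was higher in FAKi at day 3, with 3.11, 3.19 and 3.27 CPM against 2.27, 1.34 and 2.09 CPM in DMSO, and lower at day 21, with 1.10, 1.62 and 1.18 CPM against 2.92, 3.18 and 1.67 CPM. The groups did not overlap on either day, although the lowest DMSO library at day 21 was close to the highest FAKi library. At day 7 the FAKi libraries had 6.96, 3.45 and 4.29 CPM and the DMSO libraries 2.88, 3.50 and 3.63 CPM, and at day 14 the groups covered 3.23 to 4.95 and 3.12 to 6.53 CPM. The log2 fold changes were 0.76 (SE 0.272), 0.56 (SE 0.282), -0.10 (SE 0.282) and -0.98 (SE 0.328).

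*PSMB8*, the immunoproteasome subunit that replaces PSMB5, followed the heavy chains. It had 5.96, 11.3 and 13.5 CPM in DMSO and 5.598, 5.79 and 6.06 CPM in FAKi at day 3, and 18.3, 18.5 and 10.5 CPM in DMSO and 12.1, 12.9 and 10.0 CPM in FAKi at day 21. DMSO replicate 1 at day 3 and DMSO replicate 3 at day 21 lay inside the FAKi range. At day 14 the groups did not overlap, with 12.4, 9.73 and 9.5 CPM in DMSO and 8.05, 7.54 and 7.71 CPM in FAKi. For this gene the log2 fold changes were -0.79 (SE 0.290), -0.07 (SE 0.251), -0.44 (SE 0.178) and -0.41 (SE 0.228).

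*TAP1* and *TAP2* encode both subunits of the peptide transporter. *TAP1* ranged from 1.31 to 3.92 CPM and *TAP2* from 10.5 to 17.2 CPM, neighbouring groups overlapped throughout the order of their levels, and no FAKi comparison had an unadjusted p under 0.05 for either gene. The log2 fold changes of *TAP2* stayed between -0.14 and 0.06, and those of *TAP1* between -0.56 (SE 0.303) at day 3 and 0.38 (SE 0.333) at day 21. *TAPBP* (tapasin) was higher in FAKi at day 14, with 11.6, 10.2 and 8.96 CPM against 7.20, 5.98 and 8.78 CPM in DMSO. These groups were narrowly apart (log2 fold change 0.49, SE 0.192, adjusted p = 0.108 in edgeR, quasi-likelihood test, Benjamini-Hochberg). For the remaining days the log2 fold change of *TAPBP* lay between -0.10 and 0.21. In *TAPBP* 40.5% of the counted exon bases overlap an antisense gene, in *TAP1* 21.5%, in *HLA-B* 23.7% and in *PSMB8* 20.2%, and 35.9% of those of *TAP2* overlap a readthrough gene on the same strand, so part of their reads could belong to these neighbours.

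**Figure D2:**
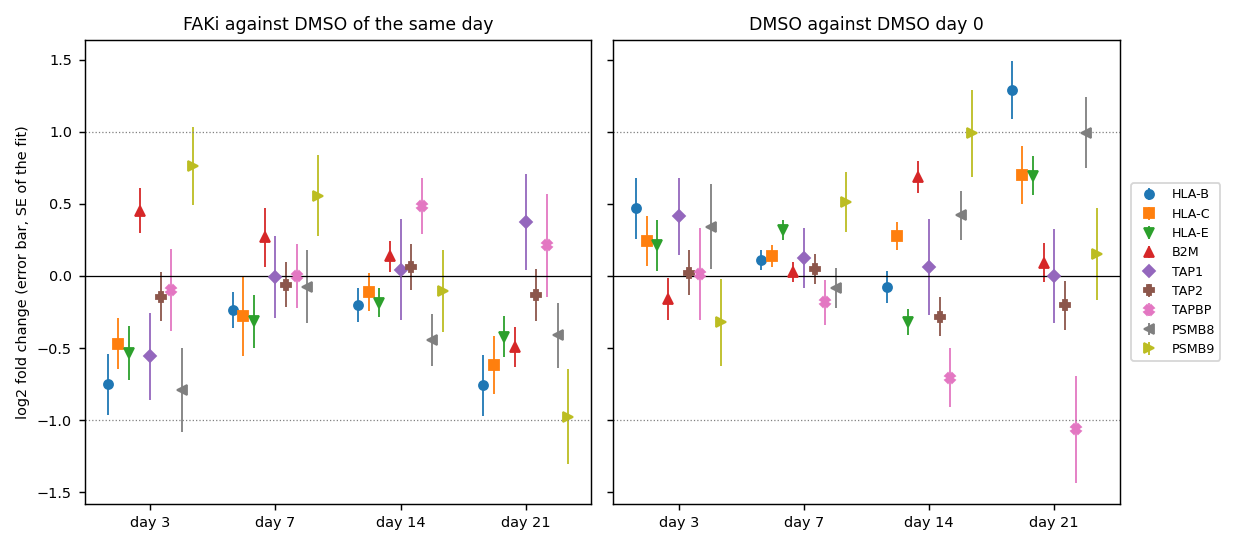
Log2 fold change of the 9 genes for FAKi against DMSO of the same day (left) and for DMSO against DMSO at day 0 (right), with the SE of the fit as error bars and dotted lines at -1 and 1. The heavy chains lie below 0 on all 4 days of FAKi, while *B2M* and *PSMB9* pass from above 0 at day 3 (0.45 and 0.76) to below 0 at day 21 (-0.49 and -0.98).

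A gene was called where the adjusted p of the quasi-likelihood test of edgeR was at most 0.05 and the absolute log2 fold change was over 1. By this rule 0 of the 9 members were called in FAKi against DMSO on any day, and the share called among all tested genes was 0%, 0.0269%, 1.66% and 5.28% at days 3, 7, 14 and 21. By the adjusted p alone the members' count was also 0 on each day, and the shares of all genes were 0%, 0.0269%, 12.4% and 11.6%. With DESeq2 the adjusted p alone gave 1 member at day 3, *HLA-B* (adjusted p = 0.0283), and 4 at day 21, with 0 at days 7 and 14. Members with an unadjusted p under 0.05 numbered 6, 0, 2 and 5 on the successive days, where 23.8%, 8.77%, 24.6% and 32.6% of all genes had one. Libraries of FAKi and DMSO did not overlap for 5, 2, 3 and 4 members on these days, against 31%, 16.8%, 29% and 35.3% of all genes.

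At day 3 the smallest adjusted p among the members was that of *HLA-B* (0.104 in edgeR, quasi-likelihood test, Benjamini-Hochberg). This day depended on the library labelled DMSO day 3 replicate 1, whose mitochondrial share of 18.1% was close to those of day 0 and of FAKi at day 3 (16.8% to 18.7%), while the other DMSO libraries of the day had 9.59% and 8.61%. Without it, 7 members had an adjusted p of at most 0.05, with 32.7% of all genes. *HLA-B* (-0.94), *HLA-C* (-0.59), *HLA-E* (-0.67), *TAP1* (-0.74) and *PSMB8* (-1.07) were then lower in FAKi, and *B2M* (0.48) and *PSMB9* (0.91) higher. The part of the mitochondrial share in these differences was not tested on this day.

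At day 21 the adjusted p was 0.0527 for *HLA-B*, 0.0521 for *B2M*, 0.0793 for *HLA-C*, 0.0831 for *HLA-E* and 0.0826 for *PSMB9* in edgeR, quasi-likelihood test, Benjamini-Hochberg. Libraries of the same replicate number deviated together on this day (r = 0.483, 0.176 and 0.688). With the replicate block these 5 genes passed the adjusted p alone, with 0.0018, 0.0101, 0.00744, 0.0167 and 0.0408, where 29.9% of all genes passed, and none of the 5 had an absolute log2 fold change over 1. Without the library labelled DMSO day 21 replicate 3, 7 members passed, with 48.5% of all genes. They were *HLA-B* (-0.95), *HLA-C* (-0.82), *HLA-E* (-0.51), *B2M* (-0.57), *PSMB8* (-0.63) and *PSMB9* (-1.20), all lower in FAKi, and *TAPBP* (0.79), which was higher. That library had a mitochondrial share of 9.75%, the other DMSO libraries of the day both had 5.49%, and the FAKi libraries had 10.7% to 11.2%.

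Over the 4 days together, with each day weighted equally in a fit of 24 libraries, 4 members were lower in FAKi by the adjusted p alone. They were *HLA-B* (-0.49, SE 0.093, adjusted p = 0.000931), *HLA-E* (-0.37, SE 0.0823, adjusted p = 0.00391), *PSMB8* (-0.43, SE 0.128, adjusted p = 0.0218) and *HLA-C* (-0.37, SE 0.116, adjusted p = 0.0303, and 0.051 to 0.0623 in 7 of 24 fits that left out 1 library) in edgeR, quasi-likelihood test, Benjamini-Hochberg. Of all genes, 15.7% passed this rule and 8.7% did so with lower values in FAKi. With the fold change rule 0 members and 1.89% of all genes were called, and DESeq2 also gave 4 members by the adjusted p alone and 0 by both rules. The mean effects of *B2M* (0.09, SE 0.0819), *PSMB9* (0.05, SE 0.156), *TAP1* (-0.04, SE 0.167), *TAP2* (-0.07, SE 0.0803) and *TAPBP* (0.14, SE 0.15) did not pass.

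The mean effect moved with libraries and with the mitochondrial share. Without the 3 libraries farthest from their own replicates, 5 members passed the adjusted p alone, with 33% of all genes. The lower genes were *HLA-B* (-0.59), *HLA-C* (-0.55), *HLA-E* (-0.38) and *PSMB8* (-0.61), and *TAPBP* (0.40) was higher in FAKi. With the log2 of the mitochondrial share as a covariate 0 members passed, with 5.49% of all genes. The values were then -0.23 (adjusted p = 0.0662) for *HLA-B*, -0.23 (adjusted p = 0.124) for *HLA-E*, -0.15 (adjusted p = 0.539) for *HLA-C* and -0.08 (adjusted p = 0.781) for *PSMB8*, all by the quasi-likelihood test of edgeR. Both checks were chosen after the data had been seen.

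**Figure D3:**
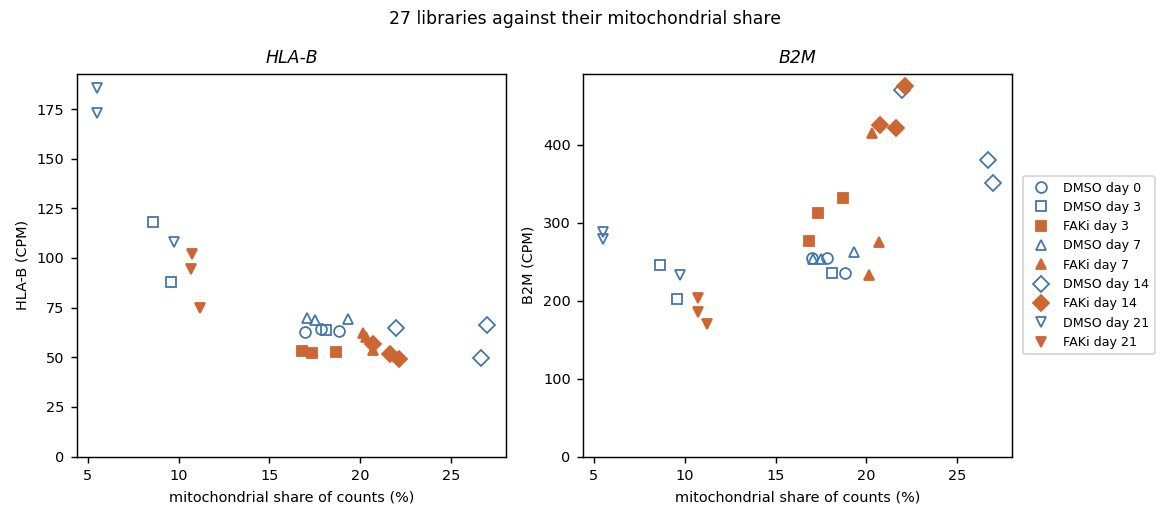
*HLA-B* (left) and *B2M* (right) in CPM (linear axes from 0) against the mitochondrial share of the counts in percent, with 1 point for each of the 27 libraries, open for DMSO and filled for FAKi. *HLA-B* reached 100 CPM only in libraries with a share under 11%, and *B2M* reached 400 CPM only in libraries with a share over 20%.

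Whether the FAKi effect itself changed with time was tested as an interaction. From day 3 to day 21 it fell by 0.97 on the log2 scale for *B2M* (SE 0.193, adjusted p = 0.0208) and by 1.76 for *PSMB9* (SE 0.413, adjusted p = 0.039) in edgeR, quasi-likelihood test, Benjamini-Hochberg. *PSMB9* was the member called by both rules, where 2.22% of all genes were called, and both genes passed the adjusted p alone, with 2.93% of all genes. Leaving out 1 library, *B2M* lost this in 7 of 12 fits (0.0544 to 0.0857) and *PSMB9* in 10 of 12 (0.0527 to 0.118). With the replicate block neither passed (adjusted p = 0.0742 for *B2M* and 0.103 for *PSMB9*). Pearson's r of log2 CPM with the mitochondrial share over the 27 libraries was 0.62 for *B2M* and 0.603 for *PSMB9*, and -0.185 and -0.288 within groups. The mean share was 12.1% in DMSO and 17.6% in FAKi at day 3, and 6.91% and 10.9% at day 21. Its part in these differences was not tested. The heavy chains had differences of -0.03 (*HLA-B*, SE 0.316), -0.17 (*HLA-C*, SE 0.28) and 0.09 (*HLA-E*, SE 0.239), and *TAP1* had 0.91 (SE 0.467, adjusted p = 0.314).

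From day 14 to day 21 the FAKi effect on *B2M* fell by 0.65 on the log2 scale (SE 0.192, adjusted p = 0.0345 by the quasi-likelihood test of edgeR). It was the single member to pass the adjusted p alone, with 12.7% of all genes, and 0 members and 7.43% of all genes passed both rules. The adjusted p of *B2M* was 0.0173 with the replicate block, and it was 0.0632 to 0.102 in 9 of the 12 fits that left out 1 library. The other members had differences of -0.90 (*PSMB9*, SE 0.471) to 0.31 (*TAP1*, SE 0.492). The comparisons share the day 21 libraries, so their values are not independent. At day 14 the mean mitochondrial share was 25.2% in DMSO and 21.5% in FAKi, and its part in the fall of *B2M* was not tested.

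The DMSO cells changed with time as well, which sets the level against which FAKi was compared. Against DMSO at day 0, both rules called 0 (0% of all genes), 0 (0.699%), 0 (6.07%) and 2 (23.3%) members on the successive days. The adjusted p alone gave 0 (0%), 1 (4.94%), 5 (28.3%) and 5 (44.9%). At day 3 the unadjusted p was under 0.05 in 0 members and in 9.86% of all genes, and DESeq2 gave 0 members on days 3, 7 and 14 by both rules. Libraries did not overlap for 0, 4, 7 and 4 members at days 3, 7, 14 and 21, with 16.9%, 21.5%, 43.2% and 58.1% of all genes.

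At day 14 of DMSO, *B2M* (0.69, SE 0.108, adjusted p = 0.000287), *PSMB9* (0.99, adjusted p = 0.0239) and *HLA-C* (0.28, adjusted p = 0.0422) were higher than at day 0 by the adjusted p alone in the quasi-likelihood test of edgeR. *HLA-E* (-0.32, adjusted p = 0.0152) and *TAPBP* (-0.71, adjusted p = 0.0179) were lower. Of these genes, *B2M* alone passed in all 6 fits that left out 1 library. The mitochondrial share was 22.0% to 26.97% in these libraries and 17.0% to 18.8% at day 0. At day 21 *HLA-B* rose by a log2 fold change of 1.29 (SE 0.199, adjusted p = 0.00296) and *TAPBP* fell by 1.06 (SE 0.369, adjusted p = 0.0442) by the same test. *PSMB8* (0.99, adjusted p = 0.0127), *HLA-C* (0.70, adjusted p = 0.0226) and *HLA-E* (0.69, adjusted p = 0.00582) were higher by the adjusted p alone. *PSMB8* lost this in 2 of 6 fits that left out 1 library (0.0573 and 0.0635). The mitochondrial share of the DMSO libraries of day 21 was 5.49% to 9.75%. Over the 27 libraries, Pearson's r of log2 CPM with the share was -0.861 for *HLA-B*, -0.776 for *HLA-E*, -0.606 for *PSMB8* and -0.425 for *HLA-C*. Within groups r was -0.748, -0.499, -0.749 and -0.497 for these genes in the same order. The rank correlation (Spearman's rho) over the 27 libraries was -0.737, -0.751, -0.402 and -0.18. Pearson's r over the 27 libraries was 0.62 for *B2M*, 0.603 for *PSMB9* and 0.453 for *TAPBP*. For these genes it was -0.185, -0.288 and 0.589 within groups, and rho was 0.633, 0.652 and 0.206. The part of the share in the changes of the DMSO cells was not tested. *TAPBP* went from 9.37, 10.6 and 15.6 CPM in the libraries of day 0 to 4.05, 3.69 and 9.40 CPM in those of day 21, so its groups overlapped through the library labelled DMSO day 21 replicate 3, and without that library it was at -1.63. The call of *TAPBP* was lost in all 5 fits that left out one of the other libraries (adjusted p = 0.0746 to 0.171), and *HLA-C* also passed only without that library (0.068 to 0.0871 in the 5 other fits). At day 7 *HLA-E* alone passed (0.32, SE 0.0713, adjusted p = 0.0045), with 90.9 to 93.4 CPM against 69.9 to 75.9 CPM at day 0.

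The patterns of the members were compared over the 27 libraries, which share their scaling and come in groups of 3. Pearson's r of log2 CPM was 0.852 between *HLA-B* and *HLA-E*, 0.829 between *HLA-B* and *PSMB8*, 0.813 between *HLA-C* and *PSMB8*, and 0.832 between *B2M* and *PSMB9*. *TAP1* and *PSMB9*, whose promoters face each other, had r = -0.406, and *TAPBP* and *PSMB8* had r = -0.775. Within groups, from the deviations of each library from its group mean, r was 0.641, 0.801, 0.788, 0.696, -0.392 and -0.614 for these pairs in the same order. Not all heavy chains were alike, since *HLA-C* and *HLA-E* had r = 0.370 (0.0561 within groups). Within groups *HLA-C* had r = 0.560 with *B2M* and 0.592 with *PSMB9*, and *TAP2* and *TAPBP* had 0.676 over all libraries. The genes most like the mean of the members, of 15514 compared over the 27 libraries, were *PTMAP5* (r = 0.812), *SDF4* (0.805), *DDX54* (0.803), *ZNF219* (0.797) and *DBN1* (0.780). This mean is not a pattern that all members share. Each member's r with the mean of the other members ran from -0.432 (*TAPBP*) to 0.643 (*HLA-C*). These values are descriptions and were not tested.

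**Figure D4:**
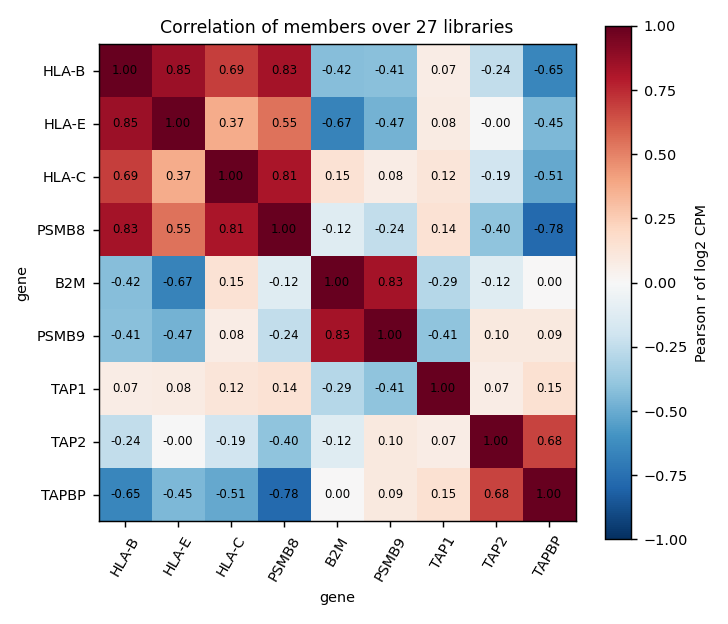
Pearson's r of log2 CPM between each pair of the 9 genes over 27 libraries, from blue (-1) to red (1). *HLA-B*, *HLA-E*, *HLA-C* and *PSMB8* have positive values with each other, *B2M* pairs with *PSMB9* (0.83), and *TAPBP* and *PSMB8* have a negative value (-0.78).

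Other genes of the pathway were read from lists. Of the 6 other class I heavy chains and class I-like genes, 4 were tested on each of days 14 and 21. At day 14, 1 was called higher, *MICA* (1.38, adjusted p = 0.00425 in edgeR, quasi-likelihood test), a ligand of natural killer cells. Of all genes, 1.66% were called on that day, and the list had 2 positive and 2 negative values (median 0.006). At day 21, 0 were called, and all 4 values were negative (median -0.66). Among them 3 had an unadjusted p under 0.05 and 1 passed the adjusted p alone, with 32.6% and 11.6% of all genes in either direction. Of the 9 other loading and trimming genes, 0 were called on either day. Among them the chaperone *CALR* was higher at day 14 by the adjusted p alone (0.82, adjusted p = 3.59e-06). At day 21 the list had a median of -0.42, with 7 of 9 values negative and an unadjusted p under 0.05 for 6 lower genes and 0 higher ones, and 0 passed the adjusted p. *PSMB10*, the third immunoproteasome subunit, had -1.01 at day 21 (SE 0.354, adjusted p = 0.0911).

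The 3 constitutive catalytic subunits of the proteasome, which the immunoproteasome subunits replace, were all lower in FAKi at day 21 by the adjusted p alone. Of all genes, 11.6% passed the adjusted p alone on this day and 5.28% passed both rules, in either direction. *PSMB6* (-1.11, adjusted p = 0.0265) and *PSMB7* (-1.10, adjusted p = 0.0284) were called lower by both rules, and *PSMB5* had -0.90 (adjusted p = 0.0315) in the quasi-likelihood test of edgeR. Their median was -1.10, beside -0.42 for the 9 members and 0.01 for all 23212 genes tested. In DMSO at day 21 against day 0 all 3 were called higher, *PSMB5* by 1.15, *PSMB6* by 1.14 and *PSMB7* by 1.21 on the log2 scale. In that comparison 23.3% of all genes were called in either direction.

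Of 17 regulators, 1 was called at day 14, *IRF1*, higher in FAKi (1.05, SE 0.274, adjusted p = 0.0145 by the quasi-likelihood test of edgeR), with 1.66% of all genes. Its levels were 4.69 ± 0.401 CPM under FAKi against 2.27 ± 0.379 CPM for DMSO (SD, n = 3). At day 21, 0 were called (5.28% of all genes), and 2 passed the adjusted p alone (11.6%), both higher. On that day 13 of 17 values were positive, with a median of 0.27 beside 0.01 for all genes. Over the 4 days together 16 of 17 values were positive. By the adjusted p alone 3 were then higher and 1 lower, with 15.7% of all genes in either direction. *NLRC5*, the coactivator of class I genes, had -0.34 (SE 0.2), 0.04 (SE 0.206), 0.59 (SE 0.213) and 0.38 (SE 0.215) at days 3, 7, 14 and 21. None of these values passed the test.

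Of 22 interferon-stimulated genes 17 or 18 were tested on each day, and 2 were called at day 14 and 3 at day 21, all lower in FAKi, where 1.66% and 5.28% of all genes were called. They were *IFI44L* (-1.33) and *IFI44* (-1.09) at day 14, and *IFI6* (-1.20), *IFI35* (-1.12) and *IFI44L* (-1.06) at day 21. The median of the list was 0.22 at day 14 and -0.67 at day 21, where all genes had -0.01 and 0.01. In DMSO at day 21 against day 0, 5 of 17 were called, all higher (23.3% of all genes in either direction), among them *IFI6* (1.26) and *IFI35* (1.06). Of the 10 class II genes 5 were tested at day 14 and 7 at day 21, and 1 was called, *HLA-DMB* (-1.08 at day 21), an exchange factor for class II peptides. Of the 7 melanocyte markers *DCT*, a pigment enzyme, was called higher at day 21 (1.19) and over the 4 days (1.02), and its part in the class I values was not tested.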

How the data were processed

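Messenger RNA of 27 libraries was measured. The authors trimmed reads with Trim Galore, checked them with FastQC 0.11.8, aligned them to hg38 with STAR 2.5.3a and deposited raw exon counts of 1 transcript per gene from HOMER, as whole numbers without normalization. The kit was stranded, and the strand setting of the counting is not given in the sources used here. Groups followed the labels, and no library was left out. The description of DMSO day 21 replicate 3 writes its day with a stray digit, so its title was used. Comparisons used edgeR 4.0.16 in R 4.3.3 (TMM, at least 20 counts in total, glmQLFit and glmQLFTest, Benjamini-Hochberg adjustment over all genes tested), on the libraries of each comparison. The study used DESeq2, run here as an alternative (version 1.42.0). Log2 CPM used a prior count of 2. Distances between libraries are root mean squares of log2 CPM differences. Annotation overlap came from GENCODE on the same build, and sequences from RefSeq GRCh38.p14. The fits of FAKi against DMSO at day 21 and of the mean effect were tested on simulated data. The planted changes were larger than any printed here for a member, so the recovery of smaller changes was not tested. The 9 members, the lists and the tests were chosen with earlier results of these data known. All 9 members were tested in each comparison, and not every value is printed. List genes were named where they were called, with at most 3 per list and comparison, besides *NLRC5*, *IRF1*, *PSMB10*, *PTK2* and the 5 genes most alike. Some list genes that the rule names are not reported here. *CALR*, *PSMB5* and the remaining *PSMB* values were named after their values were seen. Replicate numbers were taken as pairing libraries only at day 21, where every same-number correlation of deviations was over 0.1.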

Additional observations from a re-analysis of the deposited data

Results flagged for a closer look

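In all, 3 differences of the FAKi effect between days passed the test of the difference itself. The effect on *B2M* differed by -0.966 (log2) between day 21 and day 3, from 0.45 to -0.49, and by -0.654 between day 21 and day 14. The effect on *PSMB9* differed by -1.76 between day 21 and day 3, from 0.76 to -0.98. The mean mitochondrial share was 12.1% in DMSO and 17.6% in FAKi at day 3, and 6.91% and 10.9% at day 21. Its part in these differences was not tested. Leaving out 1 library at a time, the *B2M* difference between day 21 and day 3 lay between -1.03 and -0.86 and that of *PSMB9* between -1.95 and -1.54, with every fit on the same side of 0. The adjusted p of *PSMB9* by the quasi-likelihood test of edgeR stayed at or under 0.05 in 2 of these 12 fits, those without DMSO day 3 replicate 1 (0.0201) and without DMSO day 21 replicate 3 (0.00763), and was 0.0527 to 0.118 in the others. For *B2M* it was 0.0544 to 0.0857 in 7 of 12 such fits for day 21 against day 3 and 0.0632 to 0.102 in 9 of 12 for day 21 against day 14. With the replicate block, whose pairing held at day 21 and not at days 3 and 14, neither *B2M* (adjusted p = 0.0742) nor *PSMB9* (0.103) passed for day 21 against day 3, and *B2M* passed for day 21 against day 14 (0.0173). Groups of 3 libraries were too small for a search for single outlying values.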

How the results depend on the processing

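All 34 member fold changes with an unadjusted p under 0.05 kept their sign under the alternatives run, and 31 of all 99 changed sign in at least 1, none of these being over 0.291 in size. The number of members with an adjusted p of at most 0.05 for FAKi against DMSO, 0 on each day, became 3 at day 3 and 3 at day 21 with no count filter, 3 and 5 in a joint fit of all 27 libraries, 1 and 4 by DESeq2, 5 at day 21 with the replicate block and 2 at day 21 with the newer quasi-likelihood method. Both rules gave 1 at day 21 in that joint fit (*PSMB9*). For the mean effect the adjusted p alone gave 4 in place of 0 called, and 0 passed it with the mitochondrial share as a covariate. For day 21 minus day 3 both rules gave 2 with RLE scaling and DESeq2 and 0 with the replicate block, by which 0 also passed the adjusted p alone, in place of 2. For day 21 minus day 14, where the adjusted p alone gave 1, it gave 0 with upper quartile scaling. For DMSO against day 0 the adjusted p alone gave 1, 5 and 5 at days 7, 14 and 21, and 0 and 2 at days 7 and 14 in the joint fit. Both rules gave 1 at day 14 with the newer method or a minimum of 10 counts per library (*PSMB9*). Leaving out 1 library gave 0 to 1 member by both rules and 0 to 7 by the adjusted p alone at day 3 and at day 21 of FAKi, 0 to 1 by the latter at days 7 and 14, 3 to 4 for the mean effect, 0 to 2 by both rules for day 21 minus day 3, 0 to 3 by the adjusted p alone for day 21 minus day 14, 0 to 2, 1 to 5 and 2 to 7 for DMSO at days 3, 14 and 21, and 0 to 1 and 1 to 3 by both rules at days 14 and 21. In all, 30 member fold changes changed sign by it, mostly of *TAP1*, *TAP2* and *TAPBP*, among them *TAPBP* at day 3 (0.34 without DMSO day 3 replicate 1), *TAP2* at day 21 (0.048 without DMSO day 21 replicate 3), *B2M* (-0.0063 to 0.43) and *PSMB8* (-0.28 to 0.16) at day 7 and *HLA-C* (-0.24 to 0.056) and *PSMB9* (-0.32 to 0.23) at day 14. The replicate block changed no other member's side of the adjusted p than those given for day 21, for day 21 minus day 3, and for *HLA-C* in DMSO at day 14 (0.0534). The newer quasi-likelihood method was added after the data had been seen. The causes of these changes were not tested. With 3 libraries a group and counts down to 22, small differences of *TAP1* and *PSMB9* could not be detected. The order of the 9 groups kept a rho of at least 0.967 for each member under RLE scaling or without mitochondrial genes.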
